A study of Drosophila melanogaster with 24 samples.

Results

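The comparison described here pooled 9 male-labelled libraries from injured flies (1, 2 and 4 hr after injury, 3 libraries each) and set them against 3 male-labelled libraries from uninjured controls, over all genes. These are 12 of the 24 libraries in the series, and their sex and injury labels alone decide which libraries belong to it. The study asked how the brain transcriptome of male and female flies responds in the first hours after traumatic brain injury (TBI), and the other 12 libraries are female-labelled. Injured and control flies alike were mated w1118 adults, 10 to 14 days old. The w1118 strain carries a mutation in white, which encodes a pigment transporter, and so has unpigmented eyes. Injured flies took a single strike from a high-impact trauma (HIT) device, a spring-loaded arm that throws a vial of flies against a pad, so the whole body is struck and not the head alone. Each library was made from the RNA of 1 dissected brain with a kit that reads the 3′ end of polyadenylated transcripts. Nothing in the labels ties a fly to a vial, day or preparation batch, so the p-values below measure the spread among these single brains.

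An injured fly brain is known to raise antimicrobial peptides through the Toll and Imd pathways, both of which end in NF-kB factors. Stress-activated kinases of the JNK cascade and engulfment genes of glia respond to damaged axons, and glia, which also form the blood-brain barrier, clear the debris. Genes of these systems were therefore followed beside those for energy metabolism, protein synthesis and the cell types of the head.

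The male-labelled libraries held 72792 to 527464 counts in controls and 46943 to 1466219 in injured flies, so that 1 count was worth 0.682 to 21.3 CPM (read counts brought to a common library size) depending on the library. A total of 9666 genes had a read in at least 1 of the 12 libraries and 4474 passed the filter on low counts. No libraries were identical, and all 12 pairs within a group differed beyond sampling noise. roX1, a non-coding RNA of the male dosage compensation complex, was at 774 to 1050 CPM in all 12 libraries (CPM values here and below are scaled by trimmed mean of M-values, TMM). Female flies are known to hold little roX1, yet it was as high in 10 of the 12 female-labelled libraries, all 3 controls among them: scaled over the 24 libraries, these 10 held 722 to 1260 CPM against 714 to 1020 CPM in the male-labelled ones. Only female-labelled 2 hr replicate 2 and 4 hr replicate 2 were low, at 6.2 and 79.7 CPM, so most of the female-labelled libraries went against their label in this RNA. Yp1, a yolk protein gene known from female flies, was at 314.3 to 2334 CPM (median 1729) in the 12 male-labelled libraries. There roX1 and Yp1 did not point the same way. The neuronal markers elav, nSyb, brp and Syt1 and the glial markers Gs2 and Eaat1 were present throughout, while the defining testis and ovary markers dj, Mst87F, osk and Vm26Aa had 0 to 2 reads in total. Transcripts known from tissues next to the brain were also present in every library, among them apolpp and Lsp2 of the fat body (2440 to 3770 and 917 to 1720 CPM over the injured brains), Mhc of muscle, the gut protease Jon65Aiii and the visual arrestin Arr2. In bulk RNA, fewer cells of a type and less RNA per cell cannot be told apart.

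Differences between libraries touch nearly every result. Control replicate 2 and 2 hr replicate 2 stood apart from the rest in the same direction. In both of them 856 of the 4474 genes (19.1%) were above, and 828 (18.5%) below, all 8 other libraries of ordinary depth. The feature MRE16, a non-coding RNA, took 13.9% and 17.7% of their counts, against 0.612% to 12.1% in the other libraries, 1 hr replicate 2 being the next highest. The summed level of haemocyte-associated genes, most of it the secreted peptide precursor Nplp2, was 10321 and 9274 CPM in them against 2321 to 4809 CPM elsewhere, again with 1 hr replicate 2 next, and that of glycolytic genes 20394 and 20478 CPM against 11991 to 14276 CPM. Summed neuronal genes went the other way, at 6424 and 6895 CPM against 8201 to 9474 CPM. Photoreceptor genes separated the pair: their sum was 7968 CPM in control replicate 2, the lowest of the 12, and 18191 CPM in 2 hr replicate 2, the highest. The cause of this pattern was not tested. The biological coefficient of variation was 0.358 with all 12 libraries and 0.208 without this pair. Depth differed too: control replicate 3 and 4 hr replicate 2 held 72792 and 46943 counts, the fewest of the 12, so that 1 read there was worth 12.8 and 18.4 CPM after scaling. Values are therefore given with and without the pair, a comparison chosen after the data had been seen. Without the pair the controls are replicate 1 and the shallow replicate 3 alone. A p that is then no longer under 0.05 can also come from the missing control.

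**Figure D1:**
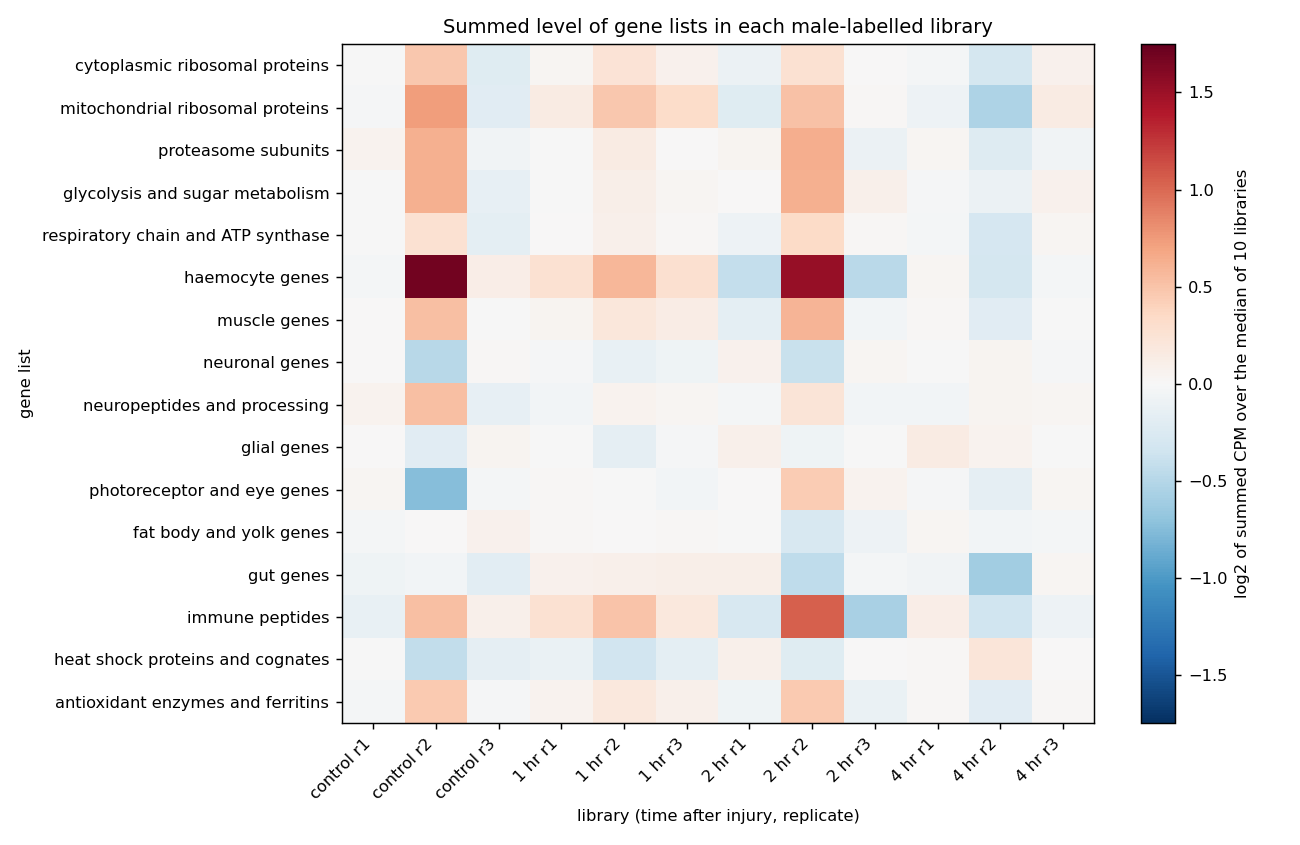
Summed CPM of 16 gene lists (rows) in each of the 12 male-labelled libraries (columns), as the log2 ratio to the median of the 10 libraries other than control replicate 2 and 2 hr replicate 2. Those 2 columns are red for ribosomal, proteasome, glycolytic, haemocyte and muscle genes and blue for neuronal genes, reaching 1.68 and 1.53 for haemocyte genes; for photoreceptor genes they part, at -0.75 and 0.44.

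Pooled over the 3 times, no gene differed between injured and control male brains at an adjusted p below 0.05 in the edgeR quasi-likelihood test (0 of 4474 genes, 0%). The smallest unadjusted p was 0.00472, for Syt7, and every adjusted p was 1. At an unadjusted p under 0.05 with a log2 fold change (log2FC) beyond 1 in size, 37 genes were higher (0.827%) and 25 lower (0.559%) in injured brains, 62 in all (1.39%). Without the limit on the fold 73 were higher (1.63%) and 66 lower (1.48%), 139 in all (3.11%). By chance alone about 1 in 20 genes has an unadjusted p under 0.05, and this share was not above that. DESeq2 and limma-voom with sample weights also gave 0 genes after adjustment, with 37 and 39 higher and 29 and 25 lower at the unadjusted threshold. Scaling by library size alone in place of TMM gave 35 higher and 14 lower. The median log2FC over all genes tested was -0.00187, and 49.8% of them were above 0. The unadjusted count rested on single libraries. It moved from 62 to 384 genes without control replicate 1, to 121 without control replicate 3 and to 115 without 2 hr replicate 2, and fell to 38, 41 and 40 without 1 hr replicate 1, 2 or 3 and to 40 without 4 hr replicate 3.

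**Figure D2:**
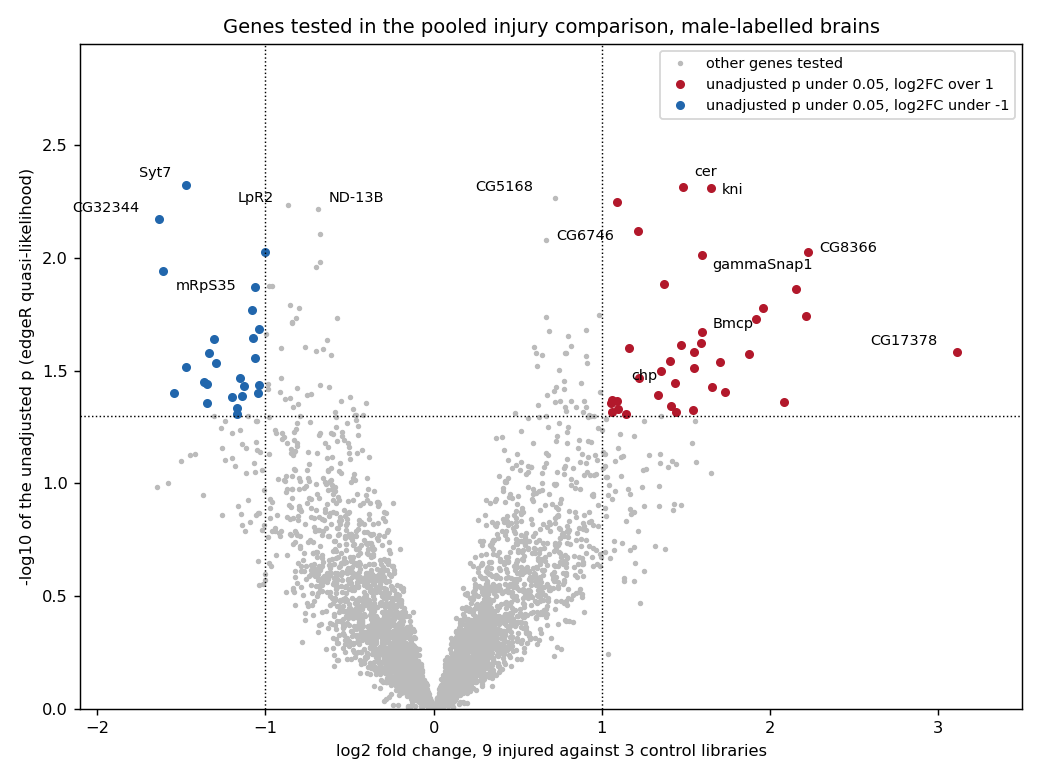
Each of the 4474 genes tested by its log2FC between 9 injured and 3 control male-labelled libraries (horizontal) and the negative log10 of its unadjusted p (vertical); dotted lines mark the unadjusted threshold and log2FC of -1 and 1. The 37 higher (red) and 25 lower (blue) genes lie beyond both lines, Syt7 is the topmost point, and none passed after adjustment.

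The error of the fit sets the size of change that could be seen. The 95% interval of the log2FC lay within -1 and 1 for 1753 genes (39.2%) so a 2-fold change in either direction lay outside it. Among the 918 genes with more than 1000 reads over the 12 libraries this held for 753 (82%), with a median standard error of 0.24. Among the 267 genes with 100 reads or fewer it held for 0, with a median standard error of 0.76. Genes at the unadjusted threshold were mostly of low abundance: the higher ones had a median of 175 and the lower ones of 159 reads over the 12 libraries, against 338 for all genes tested. Of the 918 abundant genes, 9 (0.98%) had an unadjusted p under 0.05, and CG7322 alone of these had a log2FC beyond 1 in size (-1.12 ± 0.52 SE). It was at 607 CPM in control replicate 2 against 111 and 140 CPM in the other controls.

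The 12 higher genes of smallest p are given first, none of which passed after adjustment. The low-count filter keeps a gene that reaches its limit in 3 libraries, whichever group they belong to. Of the 12, cer, gammaSnap1, Hcf, CG12219 and CG8366 were below that limit in every control. They were tested only through the injured libraries, where they are high, so their values are a description. cer (crammer), an inhibitor of cathepsin-type cysteine proteases needed for long-term memory in flies, was at 16.7, 6.1 and 12.8 CPM in the controls and between 18.4 and 49 CPM (median 32) in the injured brains. All 9 injured values were above all 3 controls, although the lowest, in the shallow 4 hr replicate 2, was 1 read. Its log2FC was 1.48 ± 0.47 (SE; unadjusted p = 0.00484, adjusted p = 1, edgeR), and 1.13 without the pair of outlying libraries. gammaSnap1, which helps take apart SNARE complexes after membrane fusion, was at 7.41, 18.3 and 0 CPM in controls and 18.4 to 56.3 CPM (median 32.6) in injured brains. It was the lone gene of the 12 with a larger value without the pair, going from a log2FC of 1.59 ± 0.56 to 2.14 (unadjusted p = 0.00969 and 0.00301, edgeR). Aplip1, a JNK scaffold of axonal transport that is not among the 12 (unadjusted p = 0.0424, edgeR), was at 14.8, 21.4 and 0 CPM against 18.4 to 54.6 CPM (log2FC 1.06 ± 0.49, and 1.2 without the pair).

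kni (knirps), a nuclear receptor-like transcription factor, was at 14.8, 6.1 and 25.5 CPM in controls and at 32.9 CPM or more in 8 injured brains, with 0 reads in 4 hr replicate 2 (log2FC 1.65 ± 0.51). fkh (forkhead), a transcription factor of gut and salivary gland, was at 9.15 to 25.9 CPM in controls and 28.9 to 111 CPM in injured brains (log2FC 1.37 ± 0.49, and 0.84 without the pair). Hcf, a chromatin-associated co-regulator, had 4 reads in the controls and 95 in the injured brains. bif (bifocal), an actin-associated protein of photoreceptors, was at 18.3 to 44.4 CPM in controls and 41.6 to 111 CPM after injury, and the aminopeptidase Psa at 18.3 to 27.8 CPM and 18.4 to 63.2 CPM. The controls and the injured brains overlapped for kni, Hcf, bif and Psa.

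Of the 12, CG5168 changed least between the fits with and without the pair. It was at 77.8, 70.2 and 51.1 CPM in controls and 98.2 to 138 CPM (median 113) in injured brains, with no overlap. Its log2FC was 0.72 ± 0.22 with all libraries and 0.7 without the pair (unadjusted p = 0.00543 and 0.0168, edgeR). CG42492 (21.4 to 46.3 against 49.8 to 105 CPM) and CG6746 (101 to 159 against 168 to 258 CPM) did not overlap either, with log2FC of 1.09 ± 0.34 and 0.67 ± 0.22. CG8366 had 4 reads in the controls, all of them in replicate 1, and 96 in the injured brains, at least 1 in each. Its pooled ratio was 4.56 with a counting interval of 1.72 to 17.1, which leaves out that it passed the filter through injured libraries alone. CG12219 had 5 and 98 reads (log2FC 1.96 ± 0.78, and 1.37 without the pair).

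**Figure D3:**
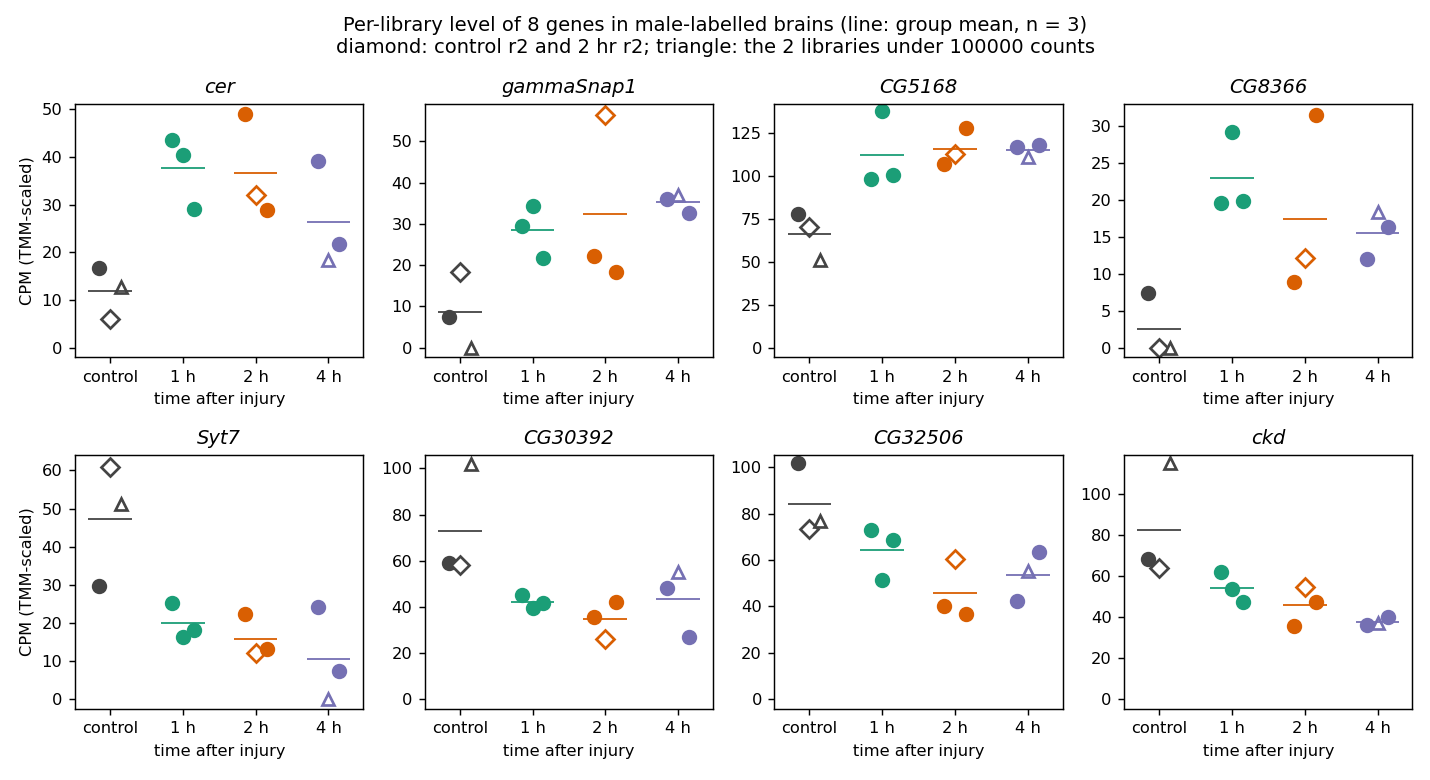
Level in CPM (TMM-scaled, vertical) of 8 genes in each male-labelled library by group; points are single brains, lines are means of 3, diamonds are control replicate 2 and 2 hr replicate 2, and triangles are the 2 shallowest libraries, control replicate 3 and 4 hr replicate 2. The 8 were picked from the 15 higher and 6 lower genes, of 4474 tested, whose groups did not overlap. That the 9 injured values lie on 1 side of the 3 controls therefore follows from the choice. CG5168 is at 98.2 to 138 CPM against 51.1 to 77.8 CPM, and ckd at 35.7 to 61.7 CPM against 64.1 to 115 CPM.

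Of the 12 lower genes of smallest p 11 were tested without the pair as well, and 0 of them then had an unadjusted p under 0.05. Syt7, a synaptotagmin that senses calcium in exocytosis, was at 29.6, 61 and 51.1 CPM in controls and 0 to 25.2 CPM (median 16.2) in injured brains, all 9 below all 3 controls (log2FC -1.47 ± 0.46). Without the pair it was at -0.99 (unadjusted p = 0.0816, edgeR). ND-13B, a subunit of respiratory complex I, was at 335, 681 and 485 CPM in controls and 245 to 432 CPM in injured brains, where 8 of 9 were below every control. Its log2FC of -0.69 ± 0.23 became -0.4 without the pair. The actin-severing protein Gel (gelsolin) was at 217 to 360 CPM and 111 to 228 CPM, and moved from -0.68 to -0.43. kra, a translation regulator related to eIF5 that acts in long-term memory, was at 128, 214 and 140 CPM and 75.2 to 126 CPM with no overlap, and moved from -0.67 to -0.4.

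For 7 of the 12 lower genes the log2FC without the pair was less than 50% of that with all libraries, and 1 more, CG32344, was then not tested. LpR2, a receptor for lipophorin, the lipid carrier of fly blood, was at 92.6, 296 and 192 CPM in controls and 84.9 to 134 CPM in injured brains. Its log2FC went from -0.87 ± 0.28 to -0.12. wts (warts), the kinase that restrains growth in the Hippo pathway, went from -0.7 to -0.25, the microtubule-associated Map205 from -1 to -0.3 and Yippee from -0.98 to -0.29. CG9773 went from -1.61 to -0.69, mRpS35 from -1.06 to -0.48 and GIIIspla2, a secreted phospholipase A2, from -0.96 to -0.42. A fall of this size was seen for 0 of the 12 higher genes, of which 7 kept an unadjusted p under 0.05 without the pair (edgeR). Control replicate 2 was the highest of the 12 libraries for all 25 lower genes past both limits, and for 20.1% of all genes tested. It was the lowest, or level with the lowest, for 23 of the 37 higher genes past them, and for 19.7% of all. Of the 62 genes past both limits, 7 (11.3%) passed them again without the pair, where they were 16.7% of 42 genes: Aplip1, cer, CG17378, CG5131, CG8366, gammaSnap1 and kni, named here after their values were seen.

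Read library by library, 15 genes (0.335%) had all 9 injured values above all 3 controls and 6 (0.134%) had all 9 below. Shares of this size arise from random ordering of 9 and 3 libraries alone, so these genes are given as values only. Their unadjusted p was under 0.05 for 14 and 5 of them, and without the pair for 6 of the 14 higher and 3 of the 6 lower genes then tested. The 15 ran from 82 to 1067 reads over the 12 libraries and the 6 from 120 to 681, and 4 hr replicate 2 held 3 reads or fewer for 9 and for 4 of them. Beside those already given, the higher set held Mekk1, a kinase that activates the stress kinase p38 in flies (25.5 to 51.8 against 53.7 to 129 CPM, log2FC 0.82 ± 0.33). It held moody, a receptor that shapes the glial blood-brain barrier (25.5 to 38.9 against 43.5 to 90.3 CPM, 0.78 ± 0.34), and Mmp1, a matrix metalloproteinase induced by JNK (3.05 to 16.7 against 17.8 to 36.9 CPM, 1.06 ± 0.51). Paip2, an inhibitor of poly(A)-binding protein, was at 63.8 to 77.8 against 84.2 to 184 CPM, and the mitochondrial alanine tRNA ligase AlaRS-m had 3 reads in controls and 79 after injury. Without the pair, Mekk1 and moody were at log2FC of 0.79 and 0.79, moody then with an unadjusted p of 0.0671 (0.035 with all libraries, edgeR), and Mmp1 was at 0.49. The remaining higher genes, CG13398, CG3776 and CG4678, had log2FC of 0.79, 0.67 and 0.75. In the lower set, CG30392, CG32506 and ckd had log2FC of -0.82 ± 0.32, -0.62 ± 0.28 and -0.7 ± 0.29, and -0.79, -0.77 and -0.77 without the pair. fas, the adhesion protein faint sausage, was at 115 to 125 against 62.3 to 112 CPM (-0.4 ± 0.24).

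Of the 9666 genes with a read in any library, 4 had no read in any control and at least 1 read in all 9 injured libraries. All 4 were below the filter, and 0 genes had the opposite pattern. They were ERR, an estrogen-related nuclear receptor that sets carbohydrate metabolism in flies (43 reads), APC4 of the anaphase-promoting complex (36), Gnf1, the large subunit of replication factor C (20), and CG13766 (16). The pooled injured libraries held 5361059 counts and the pooled controls 1018750. A gene of few reads was thus missed more easily in the controls than in the injured libraries, and 4 against 0 gives no direction. Against a floor of 3 reads over the 3 controls, ERR was at least 2.72-fold higher, APC4 at least 2.28-fold, Gnf1 at least 1.27-fold and CG13766 at least 1.01-fold. Of these reads 26, 18, 1 and 5 came from 2 hr replicate 2. Without that library the bounds were 1.48-fold for ERR, 1.57-fold for APC4 and 1.66-fold for Gnf1, and CG13766 was below the floor. Without the pair none of the 4 reached it. These bounds cover counting error alone, and reads without molecular identifiers are not independent molecules.

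Genes of the immune response did not pass the test. Of 16 antimicrobial and related peptide genes tested, 0 had an unadjusted p under 0.05 (against 1.63% higher and 1.48% lower over all genes), and their median log2FC was 0.38, or 0.24 without the pair, beside 0 and 0.03 for all genes. Mtk (metchnikowin), an antifungal and antibacterial peptide, was at 141, 110 and 115 CPM in controls and 116 to 247 CPM (median 166) in injured brains, with 7 of 9 above every control. Its log2FC was 0.56 ± 0.26 (unadjusted p = 0.0513, edgeR) and 0.53 without the pair. Drs (drosomycin), the antifungal peptide of the Toll pathway, was at 387, 491 and 587 CPM in controls and 330 to 573 CPM in injured brains, which overlapped (-0.14 ± 0.2). The interval of its change, -0.55 to 0.28, does not reach 2-fold in either direction. The attacins, peptides against Gram-negative bacteria, had the highest values of the list, AttC at 1.56 ± 0.87 and AttB at 1.06 ± 0.64, each on few reads and overlapping the controls. In the 3 brains at 1 hr both were above every control, AttC at 30.8 to 48.5 against 6.1 to 12.8 CPM and AttB at 47.1 to 75.8 against 0 to 38.3 CPM. At 2 and 4 hr both overlapped the controls. The test between times gave unadjusted p of 0.125 for AttC and 0.296 for AttB (edgeR F test). Such an order of 3 against 3 libraries also arises at random, and its share over all genes was not computed. AttA and DptB had 0 reads in the controls and 13 and 18 in the injured brains; AttA and AttB are close copies, and how the counting split their reads is uncertain.

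The secreted Toll-regulated peptides IM1, IM2, IM3 and IM4 varied more among injured brains than between groups. IM2 was at 324, 479 and 409 CPM in controls and from 128 CPM in 2 hr replicate 3 to 1410 CPM in 2 hr replicate 2. IM4 spanned 184 to 2260 CPM between the same libraries. Their log2FC were 0.38 ± 0.49 and -0.18 ± 0.59. IM2 and IM3 share much of their sequence, so their split is uncertain too.

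The Toll, Imd and JAK-STAT lists each held at most 1 gene with an unadjusted p under 0.05, beside 3.11% of all genes tested. Of 12 Toll pathway genes 0 had an unadjusted p under 0.05, and the lowest value belonged to grass, a protease upstream of Spätzle, at -1.1 ± 0.54 (-0.21 without the pair). Of 10 Imd pathway genes 1 did: Diap2, an inhibitor of apoptosis that also acts in Imd signalling, at 104, 30.5 and 63.8 CPM against 53.5 to 223 CPM (0.89 ± 0.4, and 0.31 without the pair). Rel (Relish), the NF-kB factor of the Imd pathway, was at 63.8 to 120 CPM in controls and 46.8 to 126 CPM in injured brains (-0.09 ± 0.3). PGRP-LB, an amidase that dampens the Imd pathway, was below every control in 7 of 9 injured brains (-0.64 ± 0.34). Of 7 JAK-STAT and Turandot genes, 1 was lower: TotC, a stress-induced secreted protein, at 107, 385 and 102 CPM against 81.4 to 166 CPM. Its log2FC of -0.84 ± 0.34 turned to 0.1 without the pair.

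**Figure D4:**
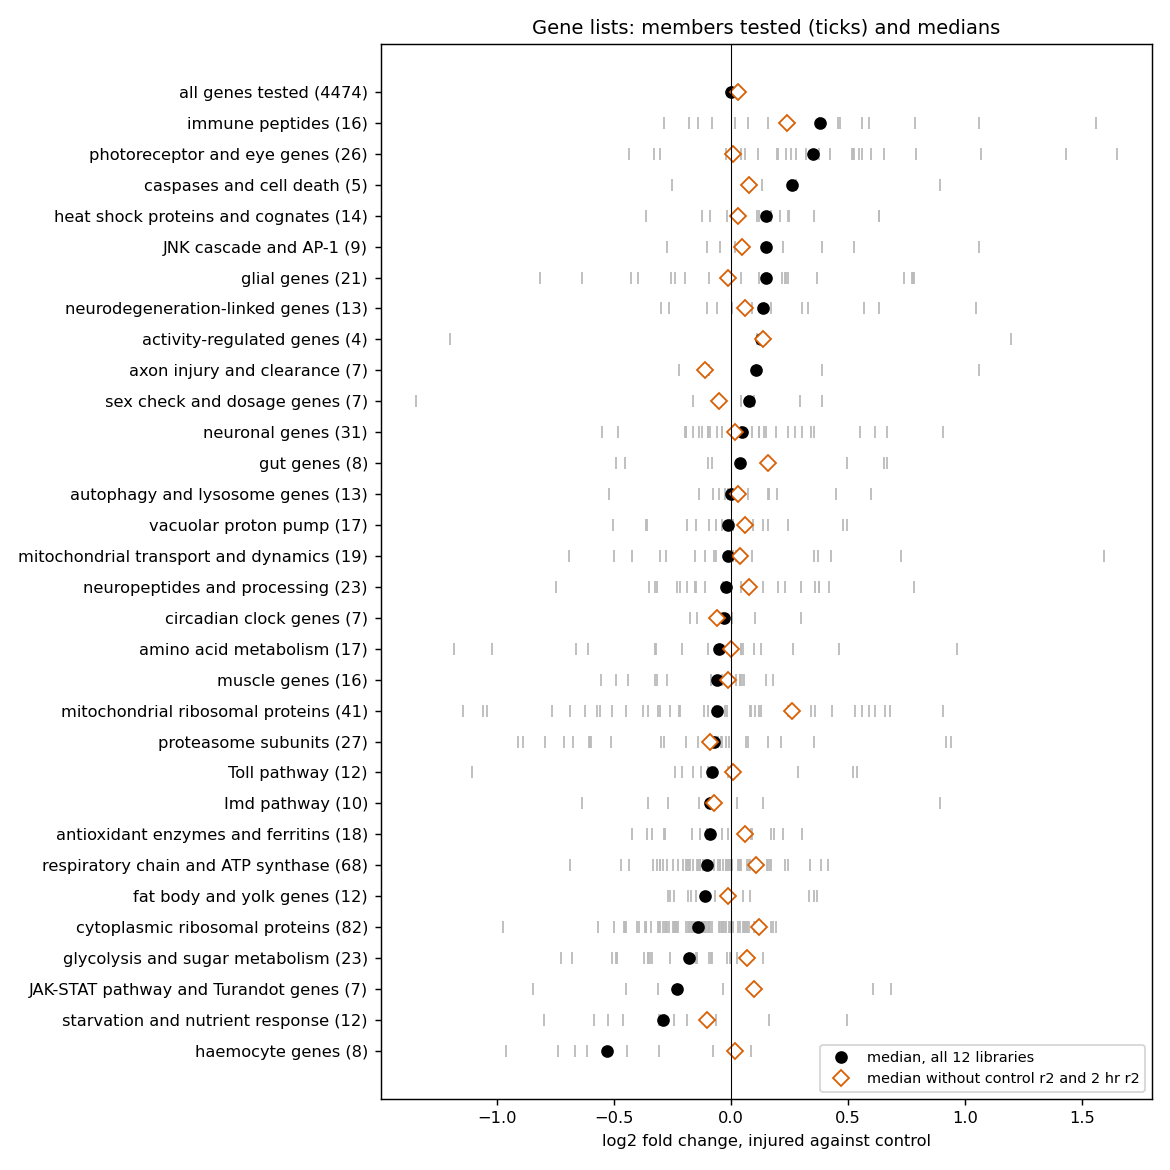
Log2FC (horizontal) of the tested members of each gene list (ticks; number tested in brackets) with the list's median over all 12 libraries (black) and without control replicate 2 and 2 hr replicate 2 (open diamonds). The medians span -0.53 (haemocyte genes) to 0.38 (immune peptides) with all libraries and -0.11 to 0.26 without the pair.

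The lists of genes that report cellular stress each held at most 1 member with an unadjusted p under 0.05, beside 3.11% of all genes tested. Of 9 genes of the JNK cascade 1 had an unadjusted p under 0.05, Mmp1 (above); puc (puckered), the phosphatase that JNK itself induces, was at 115, 42.7 and 51.1 CPM in controls and 47.6 to 240 CPM in injured brains (0.52 ± 0.4). wnd (wallenda), the kinase that starts axon injury signalling, was at 0.39 ± 0.32, and Ect4 (the fly Sarm), which drives axon degeneration, at -0.09 ± 0.18 with its interval inside 2-fold. Of 14 heat shock genes 0 passed, with a median of 0.15 (0.03 without the pair) and values of -0.36 for DnaJ-1 to 0.63 for CG14207. Of 18 antioxidant and ferritin genes 1 was lower, the mitochondrial superoxide dismutase Sod2, at 291 to 397 CPM in controls and 147 to 301 CPM in injured brains (-0.42 ± 0.2, and -0.21 without the pair). The intervals of 14 of the 18 lay within 2-fold. Of 5 cell death genes tested the lone one past the unadjusted limit was Diap2, and hid, an activator of apoptosis, was at -0.25 ± 0.26. Of 13 autophagy and lysosome genes 1 was higher, cathD, the lysosomal protease cathepsin D, at 70.2 to 102 against 92.2 to 147 CPM (0.6 ± 0.24, and 0.53 without the pair).

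Cell type markers had no member past the test after adjustment. Of 31 neuronal genes 2 were higher at the unadjusted limit and 0 lower (1.63% and 1.48% over all genes tested), with a median of 0.05. These were VAChT, the vesicular acetylcholine transporter (51.9 to 87 against 81.4 to 136 CPM, 0.62 ± 0.26), and the vesicle GTPase Rab3 (0.91 ± 0.43). Without the pair they were at 0.44 and 0.54. The pan-neuronal elav was at 247 to 304 CPM in controls and 155 to 348 CPM in injured brains (-0.09 ± 0.22), the lowest value being 2 hr replicate 2.

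Of 21 glial genes 2 were higher and 1 lower at the unadjusted limit (against the same 1.63% and 1.48%), with a median of 0.15. Cyp4g15, a cytochrome P450 known from glia, was at 33.3, 51.9 and 12.8 CPM against 44.6 to 77.8 CPM, and its log2FC went from 0.78 ± 0.32 to 1.09 without the pair (unadjusted p = 0.0264 and 0.00824, edgeR). moody was the other higher gene. e (ebony), the glial enzyme that inactivates histamine and dopamine, was at 31.5, 88.5 and 89.4 CPM against 21 to 45 CPM (-0.81 ± 0.36, and -0.29 without the pair). repo, the transcription factor that defines glia, was at 25.9, 12.2 and 25.5 CPM in controls and 0 to 28.3 CPM in injured brains (-0.64 ± 0.71), with 20 and 71 reads in all. Its log2FC was 0.06, -2.09 and -0.82 at 1, 2 and 4 hr, the 2 hr brains being at 0, 6.06 and 5.24 CPM. Between times its unadjusted p was 0.0343 (edgeR F test), and it did not pass after adjustment.

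Of 26 photoreceptor and eye genes 2 were higher and 0 lower at the unadjusted limit (again beside 1.63% and 1.48%). A total of 22 had a log2FC above 0 (49.8% over all genes), and their median was 0.35 with all libraries and 0.01 without the pair. chp (chaoptin), an adhesion protein of the light-sensing membrane, was at 31.5, 15.3 and 51.1 CPM in controls and 31.2 to 220 CPM in injured brains, and Rh4, an ultraviolet opsin, at 24.1, 0 and 25.5 against 21.7 to 128 CPM. The highest value of each was 2 hr replicate 2, and without the pair their log2FC went from 1.43 and 1.65 to 0.69 and 0.57. All 8 haemocyte-associated genes but Col4a1 were below 0, with a median of -0.53 that was 0.02 without the pair. NimC4, an engulfment receptor of glia and haemocytes, went from -1.29 to 0.41. NimC1, a defining haemocyte marker, had 1 read in the 12 libraries, and Hml, another, was at 146 to 159 CPM in controls and 84.9 to 186 CPM in injured brains. Fat body (12 genes, median -0.11), muscle (16 genes, -0.06) and gut genes (8 genes, 0.04) had 0 members at the unadjusted limit, which 3.11% of all genes tested passed.

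Lists of energy metabolism and protein synthesis had medians between -0.18 and -0.06, each of which changed sign without the pair, while single members lay farther from 0. The 68 genes of the respiratory chain and ATP synthase tested had a median of -0.1 (0.11 without the pair), with 53 intervals inside 2-fold and ND-13B as the lone member past the unadjusted limit. The 82 cytoplasmic ribosomal proteins, taken by name prefix, had a median of -0.14 (0.12 without the pair) and 0 members past it. The 23 glycolytic and sugar genes had a median of -0.18 (0.07 without the pair) and 3 of them were above 0. Of 41 mitochondrial ribosomal proteins, with a median of -0.06 (0.26 without the pair), 1 was higher and 3 were lower at the unadjusted limit (1.63% and 1.48% over all genes). mRpL47 was at 48.1, 48.8 and 63.8 CPM against 36.9 to 165 CPM (0.91 ± 0.37, and 0.78 without the pair). The lower ones were mRpS35 (-1.06), mRpL20 (-0.76) and mRpL41 (-1.14), which were at -0.48, -0.17 and 0.36 without the pair. mRpL55 had 0 reads in controls and 38 in 6 of the 9 injured libraries, which is at least 2.41-fold higher by the floor above. Of these reads 21 were in 2 hr replicate 2, and without it the bound was 1.48-fold; without the pair mRpL55 was below the floor. mRpL43 had 4 and 7 reads (ratio 0.333, counting interval 0.0845 to 1.55). Bmcp, a mitochondrial carrier of the brain, was at 18.5, 0 and 0 CPM against 18.4 to 42 CPM (1.6 ± 0.67, and 0.94 without the pair). All 10 of its control reads were in control replicate 1, and without that library the fitted value was 6.81, set by controls at 0.

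The remaining lists also held at most 1 such member each, beside 3.11% of all genes tested. Of 19 genes of mitochondrial transport and dynamics Bmcp was the lone one. Of 27 proteasome subunits there were 0, with a median of -0.07 (-0.09 without the pair) and values such as 0.92 ± 0.46 for Rpt1 and -0.89 ± 0.46 for Prosbeta1, which were 0.48 and -0.17 without the pair. Of 17 vacuolar proton pump genes there were 0 (median -0.01), of 17 genes of amino acid metabolism 0 (-0.05) and of 23 neuropeptide genes 0 (-0.02). Nplp3, a neuropeptide-like precursor, was at 752, 2750 and 919 CPM in controls and 566 to 2100 CPM in injured brains, the high value of each group being an outlying library (-0.75 ± 0.4, and -0.18 without the pair). Of 12 genes of the starvation and nutrient response there were 0, with a median of -0.29 (-0.1 without the pair). Thor, the translation inhibitor 4E-BP, was at 117, 195 and 243 CPM against 98 to 178 CPM (-0.46 ± 0.25). Of 4 activity-regulated genes Atf3, a stress-responsive transcription factor, was past the limit, at 22.2, 101 and 0 CPM against 0 to 31.2 CPM (-1.2 ± 0.57, and 0.2 without the pair). Of 7 genes of sex determination and dosage compensation the splicing factor tra2 was past it (25 reads in controls and 57 after injury, -1.35 ± 0.61), and roX1 was at 0.04 ± 0.16.

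Genes linked to neurodegeneration and to the daily clock showed no change past either limit. tau, the microtubule-associated protein, was at 191, 85.4 and 63.8 CPM in controls and 72.7 to 203 CPM in injured brains (0.33 ± 0.33). Appl, the fly amyloid precursor protein, was at 1290, 433 and 1210 CPM in controls and 332 to 1640 CPM in injured brains (0.14 ± 0.38). The low values of Appl were control replicate 2 and 2 hr replicate 2. Of 13 genes of the neurodegeneration list and 7 clock genes, 0 had an unadjusted p under 0.05, with medians of 0.14 and -0.03. Pdp1, a clock transcription factor, was at 485 to 664 CPM against 387 to 642 CPM (-0.15 ± 0.19).

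No gene differed between the 3 injury times at an adjusted p below 0.05 (0 of 4474, 0%; 30 genes, 0.671%, at an unadjusted p under 0.05, edgeR F test over 1, 2 and 4 hr). The unadjusted count went to 81 without control replicate 2, to 71, 203 and 103 without 2 hr replicate 1, 2 or 3, to 11 and 17 without 1 hr replicate 2 or 3 and to 19 without 4 hr replicate 1. The smallest p of that test was 0.0101, for CG11458. It was at 847 CPM in 2 hr replicate 2 and at 18.4 to 79.9 CPM in the other 8 injured brains, so 1 library set its value; its pooled log2FC was 1.37 ± 0.98 with all libraries and -0.06 without the pair. CG9394 and Asator were lower at 2 hr than at 1 hr, with log2FC against control of -0.19, -1.16 and -0.58 and of -0.44, -1.85 and -0.35 at 1, 2 and 4 hr. Set against control 1 time at a time, the unadjusted limits were passed by 41 genes (0.916%) at the 1 hr time, by 79 (1.77%) after 2 hr and by 59 (1.32%) after 4 hr; these comparisons share their 3 control libraries, and the counts are not independent. cer had log2FC of 1.62, 1.54 and 1.2 at the 3 times, CG5168 of 0.7, 0.74 and 0.74, and gammaSnap1 of 1.42, 1.69 and 1.69. Mtk was at 0.82, 0.14 and 0.63, with 165, 116 and 131 CPM in the 2 hr brains against 208, 217 and 230 CPM in those at 1 hr.

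**Figure D5:**
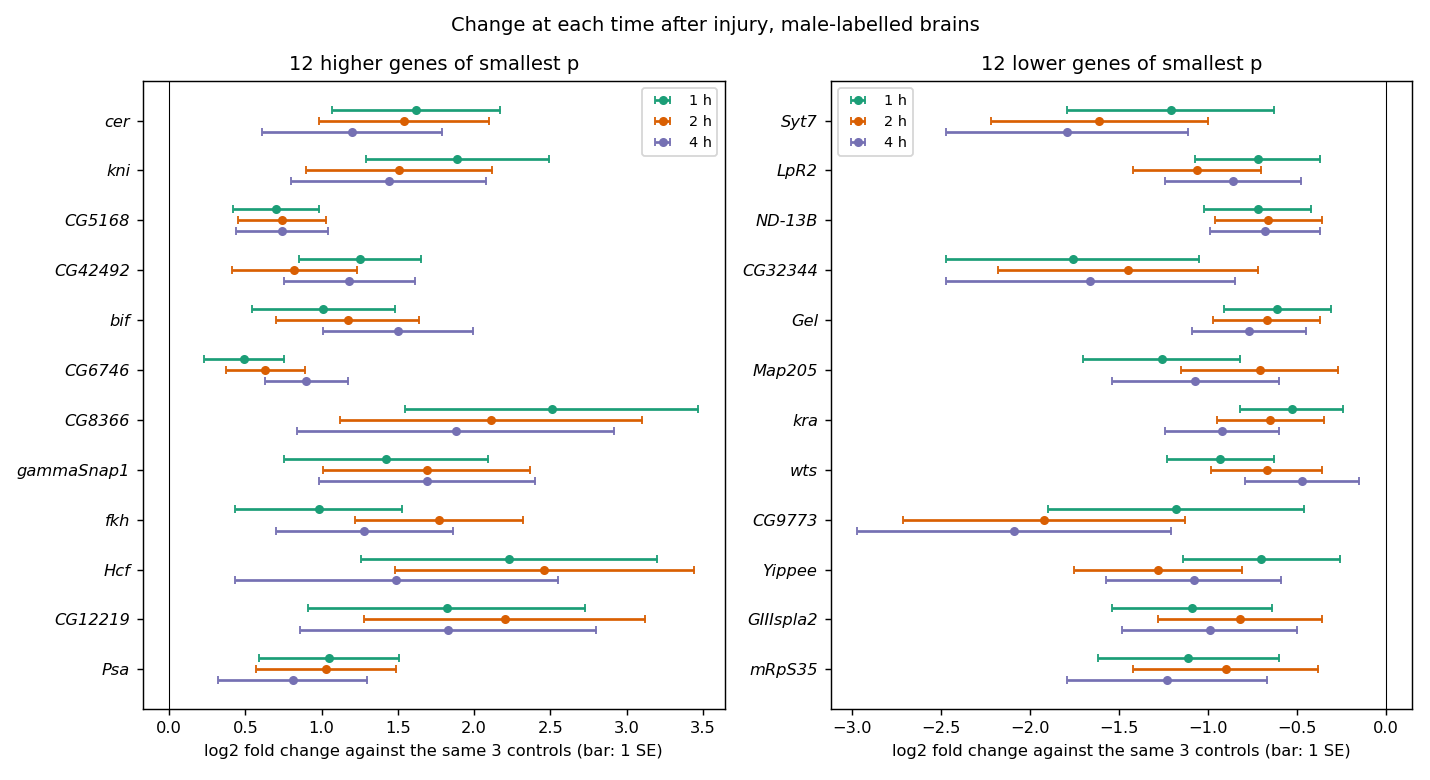
Log2FC against the same 3 controls (horizontal; bars are 1 standard error) at 1, 2 and 4 hr for the 12 higher and 12 lower genes of smallest p in the pooled comparison. The 3 points of each gene lie on 1 side of 0 with overlapping bars; as they share controls and were chosen on the pooled value, their likeness is a description.

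Nothing here could be called particular to male-labelled brains, and as roX1 was high in 10 of 12 female-labelled libraries, a difference between labels cannot be read as one between sexes. A test of the difference between the male-labelled and the female-labelled change, over all 24 libraries, gave 0 of 5462 genes at an adjusted p below 0.05 (0%; the smallest adjusted p was 0.259, edgeR). At the unadjusted limits the male-labelled change was higher for 34 genes (0.622%) and lower for 331 (6.06%), which limma-voom with sample weights put at 99 and 95. The total of 365 became 612 without male-labelled control replicate 1 and 132 without male-labelled control replicate 2. It was 177 without the outlying pair, and 292 (63 higher, 229 lower) without the female-labelled libraries low in roX1, with 0 after adjustment in each. The smallest p belonged to CG13827, with 15 reads in male-labelled and 0 in female-labelled controls and 71 and 212 reads in the injured libraries of each label. grass and CG1441 followed, with 2 and 0 reads in female-labelled controls. Mtk averaged 116 ± 19.9 CPM (SD, n = 3) in male-labelled controls and 175 ± 45.5 CPM (SD, n = 9) in injured brains. In the female-labelled groups it averaged 147 ± 78.6 CPM (SD, n = 3) and 1460 ± 3650 CPM (SD, n = 9), the latter set by 1 library at 11200 CPM, with a next highest of 448 and a median of 211 CPM. The difference of the changes of Mtk was -2.81 ± 1.48 (SE, unadjusted p = 0.0767, edgeR). That of Drs was -2.03 ± 0.85 (SE, unadjusted p = 0.0259, adjusted p = 0.726, edgeR). Drs too was widely spread in the female-labelled injured libraries, at 436 to 6100 CPM (1400 ± 1870 CPM, SD, n = 9). For the 3 leading higher genes, cer, kni and CG5168, the difference was 0.69 ± 0.72, 1.55 ± 0.82 and 0.08 ± 0.56.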

How the data were processed

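RNA of single brains from 24 flies was made into 3′ libraries and read by sequencing. The deposited table gives whole-number counts per gene and library, with no normalization by the authors. The submitters' processing notes name CASAVA 1.8.2, STAR 2.4, edgeR 3.22.3 and the genome build dm3. The sources used here do not give how reads shared by genes were counted. Deposited tables of the authors' own comparisons (fold changes and p-values) were not used.

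Counts were analysed in R 4.3.3 with edgeR 4.0.16: filterByExpr (min.count 10, min.total.count 15), TMM scaling and the quasi-likelihood test with Benjamini-Hochberg adjustment. All p-values are two-sided. Injured against control was fitted on the 12 male-labelled libraries, the difference between times on the same 12 with a mean per time, and the difference between labels on all 24. A gene was called at an adjusted p under 0.05; the unadjusted limits were p under 0.05 with a log2FC beyond 1. Standard errors are Wald errors of that fit and intervals are 95%. CPM values were computed here from the counts. Genes at 0 in a group were set against a floor of 3 counts. Depth, 46943 to 1466219 counts per male-labelled library, limits genes of few reads most.

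Named were the 12 genes of smallest p in each direction, up to 3 leading members of the lists described, the genes that the paper's text names for males or measured by qRT-PCR, the 3 smallest p of the time and label tests, and marker genes. Further genes were named after their values were seen. The comparison and the lists were chosen with earlier results of these data known. Alternatives were DESeq2 1.42.0, limma-voom (limma 3.58.1), the edgeR likelihood ratio test, other scalings and filters, thinning to 1 depth, a replicate block and leaving out libraries or times. The code was tested on simulated data. Sequences and coordinates were not used here.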

Additional observations from a re-analysis of the deposited data

Results flagged for a closer look

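In each group of 9 injured male-labelled brains, values were examined for a highest or lowest library whose gap to its nearest neighbour was large for the range (Dixon's criterion at 95%). Of 122 such groups, the genes and summed lists named in the report, 32 (26.2%) had one. Chance gives about 1 in 20, and values of 1 library are not independent of each other. The library was 2 hr replicate 2 in 24 of them, 4 hr replicate 2, one of the shallow libraries, in 5, and 2 hr replicates 1 and 3 and 4 hr replicate 1 in 1 each.

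In 2 hr replicate 2 the highest values, in CPM with the next highest library in brackets, were those of the peptides IM1 at 803 (478), IM2 at 1410 (664), IM3 at 2130 (1350) and IM4 at 2260 (1000). The peptide precursors Nplp2 and Nplp3 were at 8470 (3830) and 2100 (959), and the engulfment receptor NimC4 at 214 (96). The photoreceptor genes chp and Rh4 were at 220 (86.9) and 128 (50.7). CG11458 was at 847 (79.9), CG7322 at 352 (184) and CG1441 at 40.7 (18.1). ND-13B was at 432 (331), mRpS35 at 54.6 (36.9), gammaSnap1 at 56.3 (36.9) and Aplip1 at 54.6 (34.4).

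Sums over lists stood apart in the same library. They were highest for proteasome subunits at 3344.9 CPM (next 2393.8), glycolysis at 20478 (14276), haemocyte genes at 9273.5 (4808.8), muscle genes at 6725.3 (5154.3), neuropeptides at 4595.2 (4086.6) and photoreceptor genes at 18191 (13966). They were lowest for neuronal genes at 6895 (next 8200.6) and fat body genes at 10437 (11979).

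In 4 hr replicate 2, where 1 read was worth 18.4 CPM, kni was lowest at 0 (next 32.9) and Sod2 at 147 (225), while Mmp1 was highest at 36.9 (27.1), puc at 240 (129) and Paip2 at 184 (115). The cell death gene hid was highest in 2 hr replicate 3 at 144 CPM (95.9), CG3776 in 4 hr replicate 1 at 90.3 (66.8) and CG12219 in 2 hr replicate 1 at 44.6 (27.2). The causes were not tested.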

How the results depend on the processing

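The pooled comparison gave 0 genes at an adjusted p under 0.05 in every alternative run, and so did the difference between labels. The difference between times gave 7 genes with no filter on low counts, over 9666 genes, and 0 in the other alternatives. The 7 were MRE16, CG11458, arr, CG5172, CG18107, CG8939 and GlyP. All but CG5172 had also been tested in the fit as reported, where none passed. The filter was the only setting that differed, and how it changed their result was not tested. The 62 genes at the unadjusted limits became 94 with the likelihood ratio test, 382 with no filter, 14 with at least 10 counts in 9 libraries, 33 with all 24 libraries in the fit and 8 after thinning. They became 25, 104 and 41 without the 1, 2 or 4 hr libraries, 110 without both shallow libraries (chosen after seeing the data), and 38 to 384 without 1 library. The stricter filter and thinning also tested fewer genes; the cause was otherwise not tested.

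With the replicate block 0 genes passed after adjustment and 66 at the unadjusted limits, 48 higher and 18 lower against 37 and 25 as reported. Same-numbered libraries deviated together (all 3 correlations over 0.1) among the control, 1 hr and 2 hr groups but not with 4 hr, that is in 3 of 6 pairs of groups. Whether a number marks a shared preparation is not known, so the block is an alternative here.

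Of 54 named genes with an unadjusted p under 0.05, 48 kept their direction in each alternative in which they were tested, 14 to 29 per gene. These genes were taken for a small p in the same counts that the alternatives reuse, so a kept direction is no independent support. Without control replicate 2 the log2FC turned to 0.19 for CG32344, 0.13 for TotC, 0.28 for Atf3, 0.18 for CG7322, 0.34 for mRpL41 and 0.72 for NimC4. Without both outlying libraries (chosen after seeing the data) it was 0.1 for TotC, 0.2 for Atf3, 0.36 for mRpL41 and 0.41 for NimC4, and with limma-voom 0.08 for mRpL41 and 0.23 for NimC4. Over all settings without 1 library the lowest values of these were -1.86, -1.19, -1.61, -1.54, -1.64 and -1.82 (CG32344, TotC, Atf3, CG7322, mRpL41, NimC4). Depth limits genes of few reads most.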
